A study of Mus musculus with 11 samples.

Results

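Gene expression was compared between LSK cells of 4 Phf6R274X Tg mice (Tg) and 4 wild-type mice (WT), as sequenced from the bone marrow of single animals. LSK cells lack lineage markers, carry cKit and Sca-1 and hold the haematopoietic stem cells and the multipotent progenitors. The members are the 13779 genes with at least 1 CPM (a count scaled to the size of its library) in at least 4 of these 8 libraries, out of 55291 gene symbols in the count table. All mice were C57BL/6. The allele R274X, carried by the Tg mice and not by the WT mice, puts a stop codon into Phf6. The promoter that drives the transgene, the number of founder lines and the state of the endogenous Phf6 gene are not stated in the labels, nor are the age and sex of the mice or a batch. The series also holds 3 Phf6 KO mice, whose libraries entered the fit so that all 11 libraries shared 1 estimate of the spread between mice.

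PHF6 is a chromatin-bound protein with extended PHD fingers that was reported to associate with the NuRD remodelling complex and with nucleolar proteins, and its X-linked gene is mutated in T cell and myeloid leukaemias. Within the LSK fraction, multipotent progenitors already carry low levels of lineage transcripts, and granulocyte-monocyte genes and lymphoid genes are primed in different progenitor subsets. The first granule proteins of the neutrophil lineage are made under PU.1, a factor of the ETS family, and the C/EBP factors, while Notch signalling, IL-7 and the terminal transferase mark the lymphoid branch.

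The 8 libraries held 20990446 to 41301982 counts each, so that a gene with 0 counts could have had up to 0.0726 to 0.143 CPM (3 counts). Without molecular identifiers, this bound includes counting error and nothing else. Sex-linked transcripts differed with the groups and are given before any result. Xist, the RNA of the inactive X chromosome, lay at 48.9 to 54.2 CPM in all 4 WT libraries and at 0.0312 to 0.318 CPM in all 4 Tg libraries. The summed Y-linked level (Ddx3y, Uty, Kdm5d and Eif2s3y, per library total) was 133, 141, 0.0642 and 20.96 CPM in WT replicates 1 to 4 and 192, 49.9, 333 and 367 CPM in Tg replicates 1 to 4. WT replicates 1, 2 and 4 thus held both Xist and Y-linked reads, which goes against their label as RNA of individual mice. Genotype and Xist state cannot be told apart in these 8 libraries. Medians of part of the lists below, and some counts, are also given with those 3 WT libraries left out. The 2 KO libraries of the same kind were then left out too. Medians without such a value can differ in that fit. That fit sets the 4 Tg libraries against WT replicate 3 alone, which is assumed to vary like the other libraries. WT replicate 3 held Xist and next to no Y-linked reads (0.0642 CPM), and the Tg libraries the reverse. That fit thus does not separate genotype from Xist state either.

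Among the gate markers, Kit lay at 666 to 803 CPM in WT and 659 to 891 CPM in Tg, and Cd34 at 590.2 to 931 and 559 to 856 CPM. The gene for Sca-1, Ly6a, lay at 20.3 to 32.4 CPM in WT and 19.7 to 29.7 CPM in Tg. Defining markers of other cells differed in level. Ly6g, of mature neutrophils, was at 0 CPM in all Tg libraries and at most 0.407 CPM in WT, and Cd3e reached 2.04 CPM in WT and 0.248 CPM in Tg. Other such markers reached the level of Ly6a in WT replicate 2, with 21.8 CPM of the macrophage gene C1qa and 31.8 CPM of the platelet gene Pf4, and Pf4 reached 19.7 CPM in Tg replicate 3. The B cell factor gene Pax5 lay at 10.7, 125, 4.17 and 35.4 CPM in WT and at 1.54, 3.79, 1.09 and 17.9 CPM in Tg. Spearman correlations over the members were 0.974 to 0.985 within WT, 0.981 to 0.990 within Tg and 0.949 to 0.982 between the groups. The first principal component of the 8 libraries held 44.2% of the variance and placed WT at -52.6 to -21.1 and Tg at 21.5 to 45.6.

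Phf6 (chromosome X, 52912266 to 52956943, plus strand, GRCm38) was read first, as the gene named by the labels. It held 142, 119, 114 and 109.9 CPM in WT and 181, 179.8, 239 and 282 CPM in Tg, here and below in the order of replicates 1 to 4. Every Tg library lay above every WT library, and Phf6 transcripts rose 1.82-fold (log2 fold change 0.86, SE 0.17, adjusted p = 0.0162). Tests here and below are those of edgeR (quasi-likelihood), adjusted over all members. The call was lost for 1 of 11 libraries (largest adjusted p 0.0508, with WT replicate 2 left out). Counts per gene do not separate a transgenic from an endogenous transcript.

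Across the members, 853 genes (6.19%) were called at an adjusted p under 0.05, of which 463 (3.36%) were higher and 390 (2.83%) lower in Tg. The numbers called in each gene list below are to be read beside these shares. The rises were larger than the falls. The median log2 fold change was 0.904 among the genes called higher and -0.57 among those called lower, and 215 genes (1.56%) rose and 120 (0.871%) fell by over 2-fold. These 335 genes became 158 without WT replicate 2. Over all members the median log2 fold change was 0.01, and 51.6% lay above 0. Groups did not overlap for 10.4% of all members (5.01% with Tg higher and 5.42% with Tg lower) and for 753 of the 853 called genes. The size of the call set depended on single mice: it ran from 165 genes higher without WT replicate 2 to 659 without Tg replicate 3, and from 107 genes lower without Tg replicate 1 to 511 without WT replicate 3. In all 11 fits that leave out 1 library, 230 of the 853 genes (1.67% of members) were called, 145 higher (1.05%) and 85 lower (0.617%). Against WT replicate 3 alone 13 of the 853 genes kept their call. All 853 had the same direction and 810 had every Tg library beyond WT replicate 3, against 6399 of all 13779 members. Since the 853 genes were called with these same 5 libraries in the fit, their direction and separation here are no independent check.

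**Figure D1:**
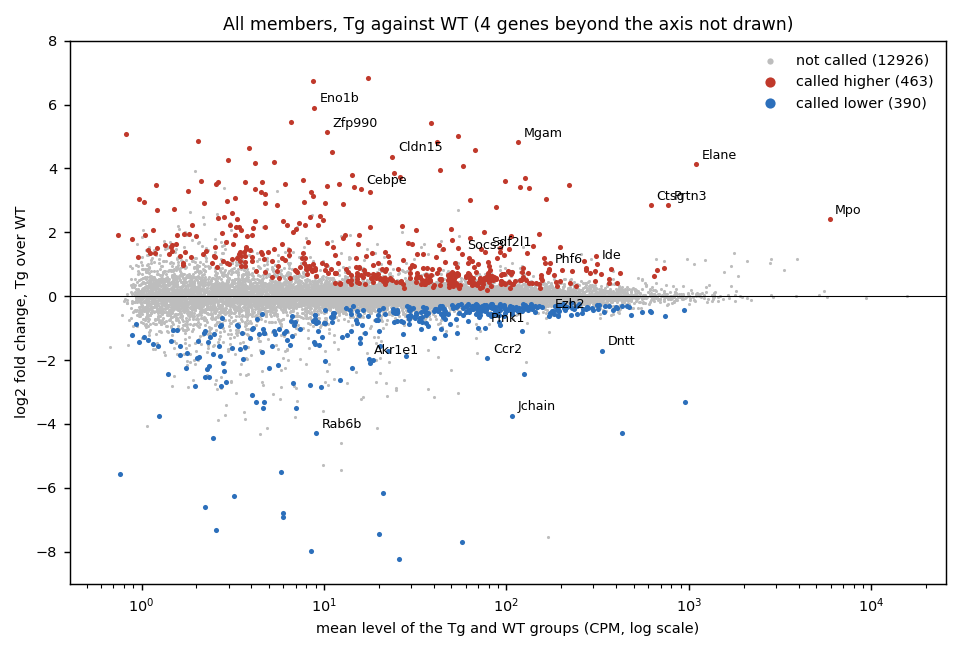
Mean level of the Tg and WT groups (CPM, log scale, horizontal) against the log2 fold change of Tg over WT (vertical) for the members, with 463 genes called higher in red, 390 called lower in blue and the others in grey. Elane, Prtn3, Ctsg and Mpo stand out at high level and high fold, while most calls lie within a few-fold of WT.

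The largest share of calls in any of the 70 gene lists was found among genes of azurophil granules, the first granules that neutrophil precursors make. Of 22 members tested, 16 rose and none fell, all 22 lay above WT, and the median log2 fold change was 1.55 (1.65 against WT replicate 3 alone). The number called ran from 12 without Tg replicate 1 to 20 without Tg replicate 3. In bulk RNA, a larger share of cells of a type and more RNA per cell cannot be told apart. The upstream sequences of 4 of these genes are shown, chosen without a rule, so that their matches do not speak for the list. That of the lymphoid gene Dntt, which moved the other way, is shown for comparison. All 5 sequences are the 250 bases before the RefSeq start of the gene (GRCm38.p6, 5′ to 3′ on the gene's strand). The gene spans printed below are from GENCODE, which starts Elane, Prtn3 and Mpo further upstream, so that the windows of these 3 genes overlap their GENCODE spans. Capitals mark GAGGAAG, a core of PU.1 and ETS sites, searched on both strands with TTGCNNAA of C/EBP sites.
Elane: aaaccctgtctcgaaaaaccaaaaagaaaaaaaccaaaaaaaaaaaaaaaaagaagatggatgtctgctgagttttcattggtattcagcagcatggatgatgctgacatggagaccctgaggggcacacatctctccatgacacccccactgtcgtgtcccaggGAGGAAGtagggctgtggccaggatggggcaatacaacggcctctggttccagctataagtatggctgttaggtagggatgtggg
Prtn3: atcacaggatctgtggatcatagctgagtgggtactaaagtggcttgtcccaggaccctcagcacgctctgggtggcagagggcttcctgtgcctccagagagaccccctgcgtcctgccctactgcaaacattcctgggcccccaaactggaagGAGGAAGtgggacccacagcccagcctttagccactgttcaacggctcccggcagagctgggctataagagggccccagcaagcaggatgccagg
Ctsg: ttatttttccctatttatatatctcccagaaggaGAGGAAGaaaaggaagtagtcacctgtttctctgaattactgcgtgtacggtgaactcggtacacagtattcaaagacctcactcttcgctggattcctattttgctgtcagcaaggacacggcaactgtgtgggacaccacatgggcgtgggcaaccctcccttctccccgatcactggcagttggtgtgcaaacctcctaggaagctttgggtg
Mpo: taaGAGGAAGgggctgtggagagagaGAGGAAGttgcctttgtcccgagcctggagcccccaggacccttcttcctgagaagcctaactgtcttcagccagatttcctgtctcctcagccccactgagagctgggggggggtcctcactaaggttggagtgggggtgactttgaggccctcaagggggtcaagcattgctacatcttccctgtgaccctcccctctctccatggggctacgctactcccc
Dntt: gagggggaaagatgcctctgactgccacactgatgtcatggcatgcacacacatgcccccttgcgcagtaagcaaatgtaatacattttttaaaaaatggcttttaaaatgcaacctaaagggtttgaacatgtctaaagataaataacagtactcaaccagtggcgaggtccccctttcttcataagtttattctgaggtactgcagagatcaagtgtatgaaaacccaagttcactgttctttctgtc
They lie at chr10:79886062-79886311 (plus strand), chr10:79879417-79879666 (plus), chr14:56102575-56102824 (minus), chr11:87793534-87793783 (plus) and chr19:41029025-41029274 (plus). Mpo held 2 matches of GAGGAAG, Elane, Prtn3 and Ctsg 1 each and Dntt 0, and none of the 5 held TTGCNNAA. In the 300-base windows around the start, 13.6% of 9862 members with a window held GAGGAAG, against 17.6% of 323 genes called higher, 16.3% of 288 called lower and 7 of 17 azurophil genes. For TTGCNNAA the shares were 8.39%, 9.91% and 10.1%, and 5 of 17 azurophil genes. A match is a description of the letters in that window.

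Elane encodes neutrophil elastase (chromosome 10, 79886247 to 79888215). It held 33.8, 122, 70.1 and 252 CPM in WT and 3838, 2663, 455 and 1362 CPM in Tg. All 4 Tg libraries lay above the highest WT library, with Tg replicate 3 nearest to it, and Elane rose (log2 fold change 4.13, SE 0.71, adjusted p = 0.0108). Its log2 fold change moved from 3.65 (Tg replicate 1 left out) to 4.79 (WT replicate 4 left out). Prtn3, proteinase 3, next to Elane (chromosome 10, 79874476 to 79883174), held 98.8, 166, 198 and 284 CPM in WT and 2348, 1622, 456 and 965 CPM in Tg (log2 fold change 2.85, SE 0.45, adjusted p = 0.00887). Ctsg, cathepsin G (chromosome 14, 56099881 to 56102574), held 74.8, 124, 183 and 226 CPM in WT and 1710, 1617, 372 and 659.6 CPM in Tg (log2 fold change 2.84, SE 0.48, adjusted p = 0.0104). The order of the Tg libraries was the same for these 3 serine proteases, with replicate 1 highest and replicate 3 lowest. Mpo, myeloperoxidase, was chosen after its values were seen. It was among the most abundant members at 1683, 966, 2144 and 2684 CPM in WT and 15176, 14629, 3479 and 6493 CPM in Tg (log2 fold change 2.41, SE 0.44, adjusted p = 0.0126). Cst7, the protease inhibitor cystatin F, held 22.8, 20.1, 33.7 and 35.6 CPM in WT and 134, 123, 55.1 and 82.3 CPM in Tg (log2 fold change 1.82, SE 0.27, adjusted p = 0.00648). Igsf6, an immunoglobulin superfamily protein of myeloid cells, held 11.3, 7.55, 10.6 and 27.7 CPM in WT and 199, 127, 37.7 and 86.7 CPM in Tg (log2 fold change 2.999, SE 0.50, adjusted p = 0.0103). Neither overlapped between the groups. The list's mean of log2(CPM + 0.5) was 5.82, 6.14, 6.29 and 6.97 in WT and 8.77, 8.71, 7.18 and 8.10 in Tg. Tg replicate 3 was the Tg library nearest to WT and WT replicate 4 the WT library nearest to Tg.

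Later granule genes, which neutrophils switch on after the azurophil set, were called less completely. In that list 4 of 13 members rose and none fell (called members from 1 without KO replicate 3 to 4 without Tg replicate 3). The median was 1.69 (2.55 against WT replicate 3 alone). Wfdc21, a whey acidic protein family member, rose and held 0.0318, 0, 0.157 and 1.25 CPM in WT and 95.4, 26.7, 3.28 and 12.7 CPM in Tg (log2 fold change 6.84, SE 1.22, adjusted p = 0.0113), with a log2 fold change from 5.49 (Tg replicate 1 left out) to 9.02 (WT replicate 4 left out). WT libraries other than replicate 4 held next to none of it. S100a8, the calprotectin subunit, held 27.9, 2.22, 2.76 and 40.2 CPM in WT and 468, 239.7, 27.8 and 203 CPM in Tg. Tg replicate 3 lay within the WT range of S100a8, and the call (log2 fold change 3.702, SE 0.98, adjusted p = 0.047; 4.42 without WT replicate 4) was lost for 9 of 11 libraries (largest adjusted p 0.13, with Tg replicate 1 left out). Lcn2, lipocalin 2 (log2 fold change 2.16, SE 0.52), and the myeloid membrane gene Mcemp1 (3.07, SE 0.81; 4.14 without WT replicate 4) also rose, with calls lost for 5 (0.0954, Tg replicate 2) and 9 (0.139, Tg replicate 1) of the 11 libraries. Here and below, brackets after a number of lost calls give the largest adjusted p and the library whose omission gave it, and a value with an SE alone is a log2 fold change. Ly6g stayed at or near 0 in all 8 libraries, as given above, and the mature neutrophil genes Ltf and Camp lay at 0.768 to 2.12 and 2.08 to 11.2 CPM in Tg and at 0.846 to 3.36 and 0.971 to 9.77 CPM in WT.

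Among myeloid transcription factors, 3 of 24 rose (from 2 without KO replicate 1 to 6 without Tg replicate 3) and 1 fell. Cebpe, the C/EBP factor of terminal granulopoiesis, held 2.51, 1.19, 1.75 and 6.23 CPM in WT and 23.4, 60.1, 8.47 and 23.9 CPM in Tg. It rose with no overlap (log2 fold change 3.34, SE 0.61, adjusted p = 0.012), moving from 2.68 (Tg replicate 2 left out) to 3.99 (WT replicate 4 left out). Cebpd held 3.53, 5.92, 7.45 and 9.3002 CPM in WT and 33.2, 42.4, 14.2 and 27.2 CPM in Tg and rose too (log2 fold change 2.17, SE 0.34, adjusted p = 0.00851). Cebpb, which acts in stress granulopoiesis, rose by less (log2 fold change 1.07, SE 0.26, adjusted p = 0.0362), its Tg replicate 3 at 17.6 CPM lay under WT replicate 4 at 19.4 CPM, and its call was lost for 9 of 11 libraries (largest adjusted p 0.102, with Tg replicate 2 left out). The list as a whole lay near WT in the main fit: its median was 0.07, and 14 of 24 members lay above WT. Against WT replicate 3 alone the median was 0.20, with Tg above it for 20 of 24.

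Of the oxidase and lipid mediator genes of phagocytes, several rose. In the NADPH oxidase list 2 of 7 subunits rose (0 without KO replicate 1 to 3 without Tg replicate 3), Ncf4 (p40phox; 0.85, SE 0.21) and Ncf1 (p47phox; 0.70, SE 0.18), with calls lost for 7 (0.111, Tg replicate 2) and 9 (0.119, Tg replicate 2) of the 11 libraries. Of 17 eicosanoid genes 4 rose and none fell (the rises from 0 without Tg replicate 1 to 4 without KO replicate 1). Alox5ap, the protein that presents arachidonate to 5-lipoxygenase, held 118, 106, 126 and 128 CPM in WT and 168, 169.7, 139 and 154 CPM in Tg (log2 fold change 0.40, SE 0.08, adjusted p = 0.0197). Lta4h, which makes leukotriene B4, held 200.1, 154, 196 and 240.2 CPM in WT and 378, 429, 219.5 and 365 CPM in Tg (log2 fold change 0.82, SE 0.19, adjusted p = 0.0284). Ltb4r1, the leukotriene B4 receptor, held 2.96, 7.46, 4.35 and 11.5 CPM in WT and 40.7, 25.9, 9.36 and 23.1 CPM in Tg (log2 fold change 1.93, SE 0.45, adjusted p = 0.0321). Ptgs1, cyclooxygenase 1, rose by 0.64 on the log2 scale (SE 0.15). Leaving out 1 library ended these calls for 4 (0.0673, Tg replicate 2) of the 11, 4 (0.0865, Tg replicate 1), 5 (0.0994, Tg replicate 1) and 6 (0.0979, Tg replicate 1) in that order. Of the mast cell and basophil list, Hdc, the histidine decarboxylase, held 17.4, 21.4, 20.1 and 32.6 CPM in WT and 67.7, 135, 32.8 and 75.8 CPM in Tg (log2 fold change 1.77, SE 0.35, adjusted p = 0.0179). Srgn, the granule proteoglycan serglycin, held 383, 507, 486 and 549 CPM in WT and 1017, 868, 573 and 941 CPM in Tg (log2 fold change 0.82, SE 0.16, adjusted p = 0.0179). Il1rl1, the IL-33 receptor, fell (-0.80, SE 0.18). Their calls were lost for 2 (0.0564, WT replicate 2), 1 (0.0583, Tg replicate 1) and 5 (0.0771, WT replicate 2) of the 11 libraries.

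Other abundant genes with large rises were Mgam, Ms4a3, Gda, C3 and Ly6c2, each at a mean of 100 CPM or more. Ms4a3, a cell cycle regulator typical of granulocyte-monocyte progenitors, held 13.3, 31.9, 37.2 and 64.05 CPM in WT and 699, 575, 97.97 and 245 CPM in Tg (log2 fold change 3.47, SE 0.60, adjusted p = 0.0108). Mgam, a maltase-glucoamylase, held 2.39, 8.08, 3.91 and 18.3 CPM in WT and 209.6, 516, 43.8 and 128 CPM in Tg (log2 fold change 4.82, SE 0.79, adjusted p = 0.00946). Gda, the guanine deaminase, held 10.8, 21.5, 15.2 and 34.4 CPM in WT and 389, 223, 77.8 and 181 CPM in Tg (log2 fold change 3.42, SE 0.47, adjusted p = 0.00459). In each of these 3 the lowest Tg library, replicate 3, lay above the highest WT library, replicate 4. The fold of Mgam moved from 3.99 (Tg replicate 2 left out) to 5.55 (WT replicate 4 left out), and the folds of Ms4a3 and Gda stayed within 1.5 times. The complement gene C3 rose (log2 fold change 3.37, SE 0.67, adjusted p = 0.017), with the call lost for 1 of 11 libraries (largest adjusted p 0.0521, with WT replicate 1 left out) and a log2 fold change of 4.19 without WT replicate 4. Ly6c2, a surface protein of monocytes and granulocyte precursors whose reads could be shared with its near-identical copy Ly6c1, rose with overlap (6.49, 34.3, 15.4 and 85.5 CPM in WT and 442, 422, 72.4 and 234 CPM in Tg; log2 fold change 3.06, SE 0.73, adjusted p = 0.0328), with the call lost for 6 of 11 libraries (largest adjusted p 0.093, with Tg replicate 1 left out) and a log2 fold change of 3.97 without WT replicate 4.

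**Figure D2:**
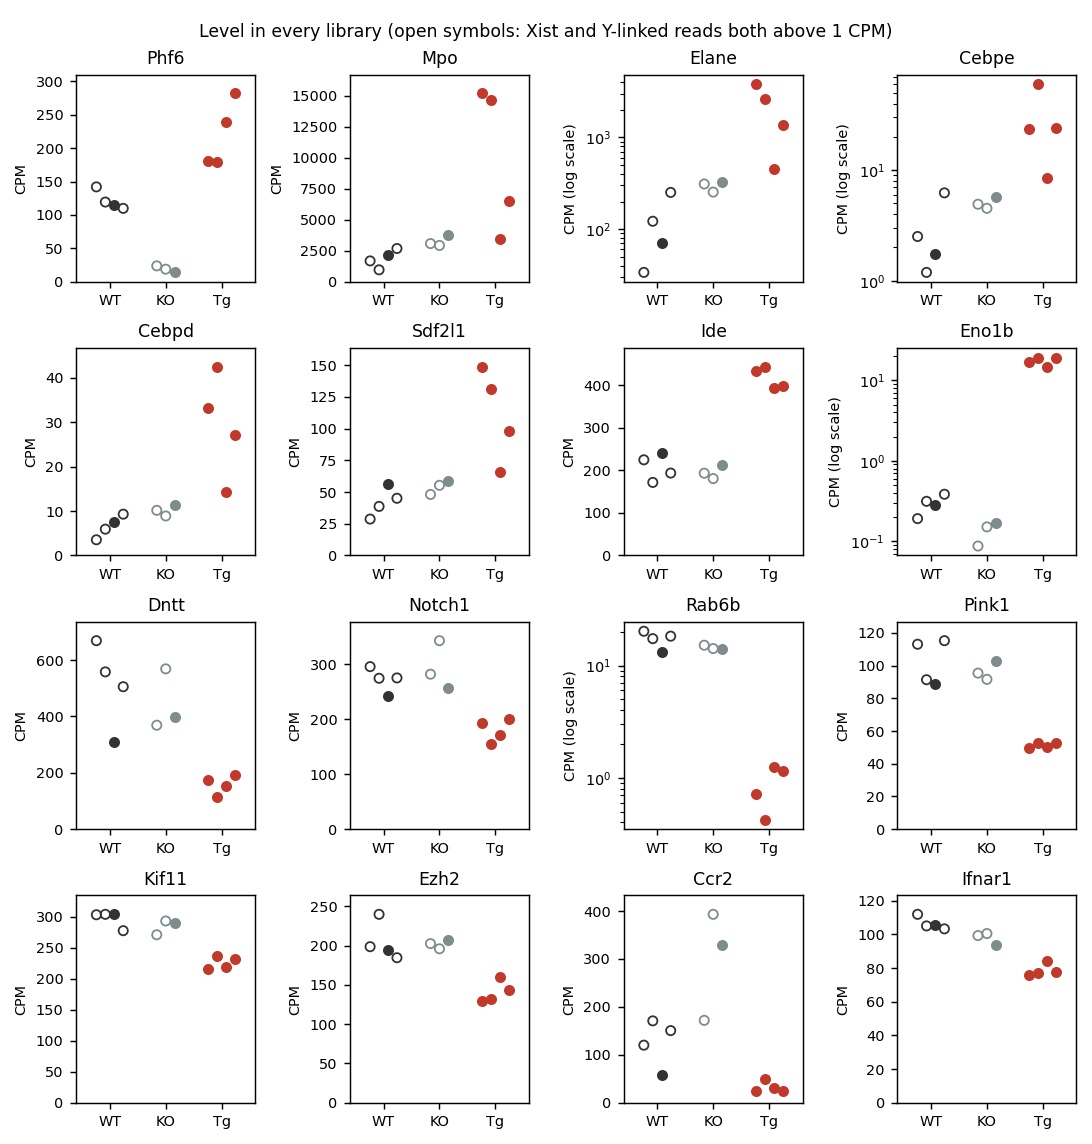
Level (CPM) of 16 genes in each of the 4 WT, 3 KO and 4 Tg libraries, 1 point per mouse, in the order of the replicates, with log axes where labelled. Open symbols mark mice whose Xist and Y-linked levels both exceed 1 CPM, and the Tg points lie beyond all WT points for each gene shown.

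Genes of the secretory pathway also rose. In the list of the unfolded protein response, the programme that adjusts folding capacity of the endoplasmic reticulum, 6 of 26 members rose and none fell (median 0.44; 0.37 against WT replicate 3 alone, with Tg above it for 25 of 26). Sdf2l1, a chaperone cofactor of the endoplasmic reticulum, held 28.7, 38.7, 56.7 and 45.1 CPM in WT and 149, 131, 65.97 and 98.5 CPM in Tg. The groups did not overlap (log2 fold change 1.39, SE 0.25, adjusted p = 0.0112). Hsp90b1, the chaperone GRP94, held 437, 455, 525 and 589 CPM in WT and 942, 835, 599.7 and 742 CPM in Tg (log2 fold change 0.64, SE 0.14, adjusted p = 0.0258). Manf, a secreted stress protein, held 72.97, 85.1, 95.1 and 113 CPM in WT and 189, 168, 108 and 149 CPM in Tg (log2 fold change 0.74, SE 0.17, adjusted p = 0.0263). Hyou1, a chaperone of the HSP70 family, held 201, 232, 356 and 283 CPM in WT and 622, 539.7, 352 and 405 CPM in Tg (log2 fold change 0.84, SE 0.20, adjusted p = 0.0328). For Manf and Hyou1 Tg replicate 3 lay within the WT range. Calls were lost for 4 (0.0811, Tg replicate 1) of the 11 libraries for Hsp90b1, 4 (0.0837, Tg replicate 1) for Manf and 7 (0.101, Tg replicate 1) for Hyou1. The number of list members called ran from 1 without Tg replicate 1 to 15 without Tg replicate 3. None of 19 heat shock genes was called by edgeR. Their unadjusted p lay under 0.05 for 3, and 1 was higher by DESeq2. A pair of them split the Tg mice. Hspa1b held 131, 162, 42.5 and 239.5 CPM in WT and 10.4, 343, 14.9 and 417 CPM in Tg. Its near-identical neighbour Hspa1a held 93.1, 113, 35.05 and 164 CPM in WT and 10.7, 276, 11.98 and 296 CPM in Tg. For both, Tg replicates 2 and 4 lay above and Tg replicates 1 and 3 below every WT library. Neither differed between the groups by the test (log2 fold change 0.45, SE 0.95, adjusted p = 0.822 for Hspa1b).

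Lymphoid priming genes moved the other way: 9 of 23 members fell, none rose, and the median was -0.81 (-0.21 against WT replicate 3 alone). Dntt, the terminal transferase (chromosome 19, 41029275 to 41059525), held 669, 558, 310.4 and 506 CPM in WT and 173, 113, 152 and 191 CPM in Tg. It fell with no overlap (log2 fold change -1.701, SE 0.24, adjusted p = 0.00499; -0.99 against WT replicate 3 alone). Lsp1, an actin-binding protein of lymphocytes, held 109, 131, 94.1 and 127 CPM in WT and 55.2, 75.1, 73.02 and 60.6 CPM in Tg (log2 fold change -0.81, SE 0.13, adjusted p = 0.00887). Lck, the kinase of the T cell receptor, held 36.7, 25.2, 20.6 and 26.03 CPM in WT and 11.5, 11.2, 12.97 and 15.3 CPM in Tg (log2 fold change -1.09, SE 0.19, adjusted p = 0.0108). Tcf7, the T lineage factor TCF1, held 8.59, 7.21, 5.51 and 7.62 CPM in WT and 3.39, 3.18, 2.91 and 4.15 CPM in Tg (log2 fold change -1.08, SE 0.19, adjusted p = 0.0109). All 4 genes were called in each of the 11 fits that leave out 1 library, while the number of list members called ran from 5 without Tg replicate 1 to 14 without WT replicate 3. WT replicate 3 was the lowest WT library for Dntt, Lsp1, Lck and Tcf7. The list mean was 5.80, 6.29, 5.02 and 5.88 in WT and 4.57, 4.46, 4.62 and 5.24 in Tg (log2 scale), so that WT replicate 3 lay below Tg replicate 4.

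In the Notch list 2 of 25 genes fell and 2 rose (1 and 0 without Tg replicate 1). Notch1, the receptor of T lineage commitment, held 295, 274.3, 243 and 275 CPM in WT and 193, 156, 171 and 199.5 CPM in Tg and fell (log2 fold change -0.60, SE 0.11, adjusted p = 0.0122). Maml3, a co-activator of Notch, fell by 0.52 on the log2 scale (SE 0.10), and the ligand gene Jag1 (1.92, SE 0.40) and the regulator Dtx4 (1.02, SE 0.21) rose. The calls of these 3 were lost for 1 (0.0531, Tg replicate 1) of the 11 libraries, 3 (0.0664, Tg replicate 1) and 4 (0.0648, Tg replicate 1). Of the 8 Gimap genes, which encode GTPases of lymphocyte survival, 4 fell (1 without Tg replicate 1 to 4 without Tg replicate 4) and all 8 lay below WT (median -0.81; -0.32 against WT replicate 3 alone). Gimap7 held 5.92, 4.35, 2.85 and 5.08 CPM in WT and 1.46, 0.821, 0.761 and 1.19 CPM in Tg (log2 fold change -2.096, SE 0.35, adjusted p = 0.0103). Gimap6 was the most abundant of them and fell (209, 184, 112 and 159 CPM in WT and 84.8, 54.4, 83.01 and 90.6 CPM in Tg; log2 fold change -1.09, SE 0.23, adjusted p = 0.0201). The calls of Gimap6, Gimap3 (-2.27, SE 0.55; -2.86 without Tg replicate 4) and Gimap4 (-2.71, SE 0.69; -3.50 without Tg replicate 4) were lost for 3 (0.0587, WT replicate 2), 7 (0.107, Tg replicate 1) and 8 (0.124, Tg replicate 1) of the 11 libraries.

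Transcripts of differentiated lymphocytes were lower in Tg, most of all against WT replicate 2. Of 46 immunoglobulin genes 16 fell and none rose (median -3.31; -1.04 against WT replicate 3 alone), where reads of near-identical segments could be split between genes. The number called ran from 6 without Tg replicate 1 to 23 without WT replicate 3. Igha held 366, 163, 196 and 119 CPM in WT and 23.4, 28.3, 72.5 and 31.01 CPM in Tg (log2 fold change -2.44, SE 0.44, adjusted p = 0.012). Jchain, the joining chain of secreted antibodies, held 169.6, 423, 49.2 and 159 CPM in WT and 9.39, 6.802, 24.9 and 18.8 CPM in Tg (log2 fold change -3.75, SE 0.60, adjusted p = 0.00887), with a log2 fold change of -3.08 without WT replicate 2. Igkc held 597, 2315, 99.2 and 270.1 CPM in WT and 28.98, 19.8, 55.6 and 65.5 CPM in Tg (-4.27, SE 0.94; -2.92 without WT replicate 2), with its call lost for 3 of 11 libraries (largest adjusted p 0.087, with Tg replicate 1 left out). Of 14 B cell genes only Jchain was called, although 13 lay below WT (median -2.40). Against WT replicate 3 alone Tg was above it for 9 of the 14 (median 0.34), and the direction of this list thus rested on WT replicates 1, 2 and 4. Immunoglobulin genes took 0.282%, 1.05%, 0.0785% and 0.286% of the counts in WT and 0.0307%, 0.0252%, 0.0369% and 0.0413% in Tg. The part of other cells in the sort in these results was not tested.

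In the T and NK cell list 4 of 11 genes fell and 1 rose. The falls ran from 1 without Tg replicate 1 to 5 without KO replicate 2, and the rise was lost for 4 of the 11 libraries, as given below. The IL-2 receptor gene Il2rb held 4.61, 8.58, 1.66 and 4.07 CPM in WT and 0.421, 0.847, 0.893 and 1.59 CPM in Tg (log2 fold change -2.34, SE 0.50, adjusted p = 0.0231). Prf1, perforin, held 2.29, 3.29, 1.38 and 2.78 CPM in WT and 0.5696, 0.821, 0.629 and 1.25 CPM in Tg (log2 fold change -1.57, SE 0.34, adjusted p = 0.0222). Trbc1, a constant segment of the T cell receptor beta chain, rose instead, with 1.21, 1.53, 0.219 and 0.959 CPM in WT and 1.66, 13.3, 24.8 and 5.24 CPM in Tg (log2 fold change 3.51, SE 0.78, adjusted p = 0.0256). Its Tg libraries spread from 1.66 CPM in replicate 1 to 24.8 in replicate 3, with a log2 fold change of 2.78 without Tg replicate 3. The calls of Il2rb, Prf1 and Trbc1 were lost for 4 (0.0705, Tg replicate 1), 4 (0.0765, Tg replicate 1) and 4 (0.062, WT replicate 1) of the 11 libraries. Il7r, the IL-7 receptor that marks lymphoid progenitors, held 16.03, 48.6, 6.58 and 22.96 CPM in WT and 3.49, 2.59, 3.94 and 10.02 CPM in Tg (log2 fold change -2.24, SE 0.56, adjusted p = 0.0384). Tg replicate 4 lay above WT replicate 3, the log2 fold change was -1.60 without WT replicate 2 and -0.40 against WT replicate 3 alone, and the call was lost for 9 of 11 libraries (largest adjusted p 0.12, with Tg replicate 1 left out).

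**Figure D3:**
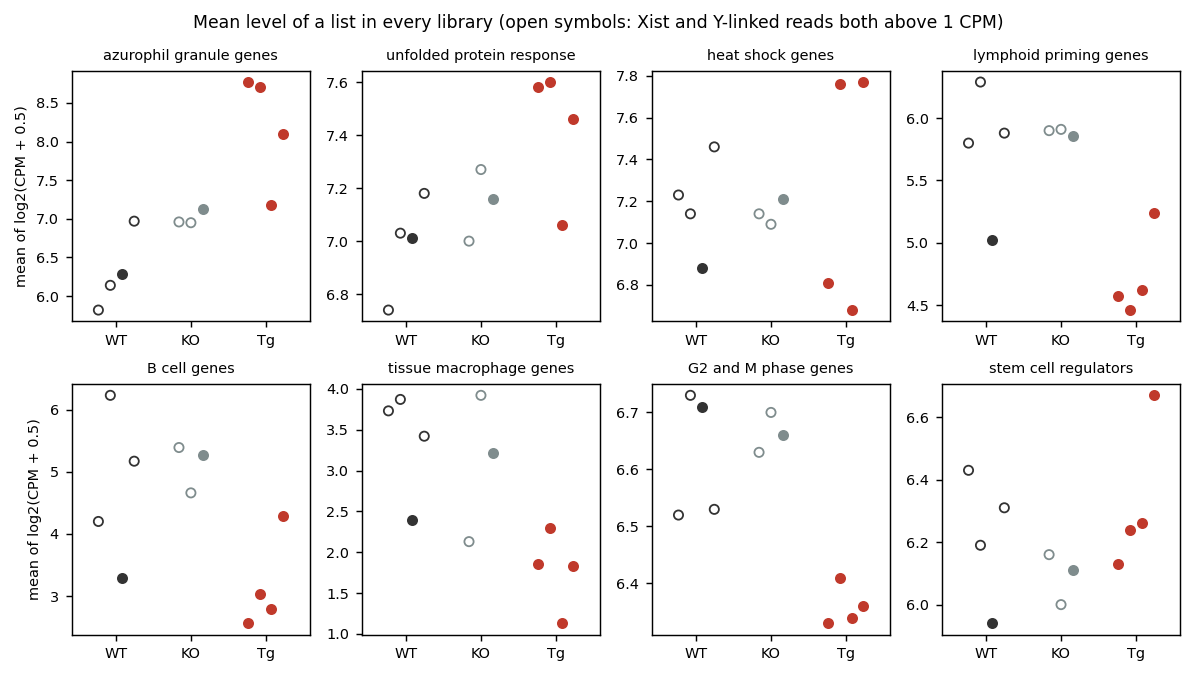
Mean of log2(CPM + 0.5) over the tested members of 8 gene lists, 1 point per mouse in the 4 WT, 3 KO and 4 Tg libraries, with open symbols where Xist and Y-linked reads were both present. Azurophil granule genes are above and G2 and M phase genes below WT in all 4 Tg libraries, while heat shock genes split the Tg mice.

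Macrophage genes were also lower in Tg. Of 18 genes of tissue macrophages 7 fell and none rose (median -2.58; -0.94 against WT replicate 3 alone). Spic, the factor of red pulp macrophages, held 3.37, 2.6, 1.79 and 2.44 CPM in WT and 0.817, 0.662, 0.596 and 0.749 CPM in Tg (log2 fold change -1.85, SE 0.28, adjusted p = 0.00773). Cd5l, a secreted macrophage protein, held 7.41, 8.14, 1.69 and 1.58 CPM in WT and 0.248, 0.397, 0.0331 and 0.156 CPM in Tg (log2 fold change -4.44, SE 0.82, adjusted p = 0.0129). Hmox1, the heme oxygenase, held 24.7, 16.9, 8.55 and 8.15 CPM in WT and 0.916, 2.83, 1.16 and 3.53 CPM in Tg (log2 fold change -2.79, SE 0.58, adjusted p = 0.0201), with its call lost for 3 of 11 libraries (largest adjusted p 0.0637, with Tg replicate 1 left out). The number of macrophage genes called ran from 2 without Tg replicate 1 to 11 without WT replicate 3. The defining macrophage markers Adgre1 and C1qa lay at 2.73 to 9.97 and 2.04 to 21.8 CPM in WT and at 1.56 to 4.85 and 0.0331 to 2.36 CPM in Tg. In the monocyte and dendritic cell list, by contrast, 1 gene rose (Ly6c2) and 3 fell (the falls from 1 without Tg replicate 1 to 4 without WT replicate 3), and the median was -0.56 but 0.45 against WT replicate 3 alone. Ccr2, the receptor that draws monocytes out of the marrow, held 120.2, 171, 57.7 and 151 CPM in WT and 23.8, 49.7, 31.3 and 25.4 CPM in Tg (log2 fold change -1.94, SE 0.36, adjusted p = 0.0136; -0.83 against WT replicate 3 alone). Ctss, the lysosomal protease cathepsin S, held 30.2, 52.97, 22.2 and 44.8 CPM in WT and 16.3, 17.4, 16.9 and 15.8 CPM in Tg (log2 fold change -1.18, SE 0.24, adjusted p = 0.0194). Tcf4, the factor of plasmacytoid dendritic cells, held 315, 333, 251 and 265 CPM in WT and 189.9, 159.6, 234 and 206 CPM in Tg (log2 fold change -0.56, SE 0.12, adjusted p = 0.0244), with calls lost for 2 (0.0614, Tg replicate 1) and 4 (0.0779, Tg replicate 1) of the 11 libraries.

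The chemokine receptors showed the same direction. Of 11 tested, 3 fell and none rose (median -1.66; -0.06 against WT replicate 3 alone), among them Ccr2 and Ccr7. Ccr7, the lymph node homing receptor, held 2.16, 5.98, 1.47 and 3.4996 CPM in WT and 0.718, 0.635, 0.463 and 1.65 CPM in Tg (log2 fold change -1.92, SE 0.48, adjusted p = 0.0375), and its call was lost for 9 of 11 libraries (largest adjusted p 0.116, with Tg replicate 1 left out). Of 24 Toll-like and C-type lectin receptor genes 4 rose and 1 fell, while 13 lay above and 11 below WT. The median was 0.15 (0.76 against WT replicate 3 alone). The rises ran from 1 without Tg replicate 1 to 6 without Tg replicate 3, and the falls from 1 without KO replicate 1 to 3 without WT replicate 3. Clec5a, a DAP12-coupled myeloid receptor, held 0.827, 2.63, 2.54 and 7.77 CPM in WT and 63.5, 34.9, 7.44 and 22.6 CPM in Tg (log2 fold change 3.26, SE 0.69, adjusted p = 0.0216; 4.01 without WT replicate 4), with its call lost for 4 of 11 libraries (largest adjusted p 0.0695, with WT replicate 2 left out), and Clec2i fell (log2 fold change -0.90, SE 0.17, adjusted p = 0.0159).

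Erythroid and megakaryocyte genes showed few calls, although most erythroid genes lay below WT. In the erythroid list Tfrc, the transferrin receptor, rose (93.97, 143, 90.7 and 148 CPM in WT and 202, 177, 151 and 224 CPM in Tg; log2 fold change 0.67, SE 0.17, adjusted p = 0.0452) and Hbb-bt, an adult beta globin gene with a near-identical copy that could share its reads, fell (4.64, 3.23, 2.004 and 5.56 CPM in WT and 1.63, 0.609, 1.36 and 0.749 CPM in Tg; log2 fold change -1.82, SE 0.37, adjusted p = 0.0197), with calls lost for 9 (0.123, Tg replicate 1) and 2 (0.0537, WT replicate 1) of the 11 libraries. Of the 19 erythroid genes 16 lay below WT, and the shares called were 5.26% in each direction. Their median was -1.32, and -0.11 against WT replicate 3 alone, with Tg above it for 7. The falls ran from 0 without Tg replicate 2 to 5 without Tg replicate 4, and DESeq2 called 6 lower and 1 higher. edgeR called none of 16 megakaryocyte and platelet genes. At an unadjusted p under 0.05 there was 1, and 1 was called by DESeq2. Itga2b, the platelet integrin CD41, held 69.6, 119.9, 118 and 77.6 CPM in WT and 145, 126, 195 and 151 CPM in Tg (log2 fold change 0.68, SE 0.22, adjusted p = 0.0938).

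Markers and regulators of the stem and progenitor cells themselves had few calls. Of 18 markers of the LSK gate and its subsets, Esam rose and Il7r fell. Esam, an adhesion molecule of stem cells, held 25.1, 18.9, 25.3 and 20.1 CPM in WT and 46.2, 30.8, 42.5 and 28.9 CPM in Tg (log2 fold change 0.73, SE 0.17, adjusted p = 0.029), and its call was lost for 4 of 11 libraries (largest adjusted p 0.0922, with Tg replicate 1 left out). None of 26 stem cell regulators was called by edgeR (median 0.09; 0.28 against WT replicate 3 alone, with Tg above it for 21 of 26). Unadjusted p-values lay under 0.05 for 4 of them, and 1 was higher and 1 lower by DESeq2. Egr1, an immediate early factor that holds stem cells in the niche, lay at 898, 688, 603 and 1792 CPM in WT and 1884, 4645, 1246 and 2358 CPM in Tg (log2 fold change 1.35, SE 0.41, adjusted p = 0.0744). Hmga2, a fetal stem cell gene, lay at 39.3, 25.4, 16.9 and 23.2 CPM in WT and 10.6, 15.5, 20.02 and 15.6 CPM in Tg (log2 fold change -0.77, SE 0.27, adjusted p = 0.119). None of 11 Hox genes was called, and none had an unadjusted p under 0.05 in edgeR or a call in DESeq2.

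Receptors and signalling genes moved in both directions. Of 43 cytokine receptor genes 2 rose (4.65%, against 3.36% of all members) and 7 fell (16.3%, against 2.83%). The falls ran from 2 without Tg replicate 1 to 8 without WT replicate 3. Ifnar1, a chain of the type I interferon receptor (chromosome 16, 91485238 to 91507441), held 112, 105, 106 and 103 CPM in WT and 75.6, 77.1, 84.5 and 77.97 CPM in Tg. The groups were far apart for their small spread (log2 fold change -0.44, SE 0.06, adjusted p = 0.00389). Il17ra, the IL-17 receptor, held 225, 269, 237 and 232 CPM in WT and 181, 164, 199 and 174 CPM in Tg (log2 fold change -0.43, SE 0.08, adjusted p = 0.0155). Il11ra1, the IL-11 receptor, rose and held 21.4, 24.6, 27.9 and 24.4 CPM in WT and 46.6, 45.2, 36.5 and 33.3 CPM in Tg (log2 fold change 0.72, SE 0.13, adjusted p = 0.0114). Tgfbr2, a TGF-beta receptor chain, fell (-0.44, SE 0.12), with its call lost for 9 of 11 libraries (largest adjusted p 0.141, with Tg replicate 1 left out). Socs3, the feedback inhibitor of gp130 and G-CSF receptor signalling, held 26.6, 22.7, 38.9 and 42.8 CPM in WT and 65.6, 74.8, 89.8 and 96.2 CPM in Tg (log2 fold change 1.32, SE 0.23, adjusted p = 0.0112). It was the only rise among 30 JAK-STAT genes, of which 1, Stat5b, fell (-0.29, SE 0.07; call lost for 9 (0.138, Tg replicate 1) of the 11 libraries). The shares of this list, 3.33% in each direction, lay near those over all members. Id1, a target of BMP signalling that blocks basic helix-loop-helix factors, held 2.099, 1.41, 1.82 and 5.08 CPM in WT and 11.4, 24.8, 7.87 and 13.01 CPM in Tg (log2 fold change 2.48, SE 0.45, adjusted p = 0.0118), with a log2 fold change from 2.06 (Tg replicate 2 left out) to 3.01 (WT replicate 4 left out).

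Feedback genes of the MAPK pathway and targets of interferon and NF-kB had few calls, all of them falls. The MAPK phosphatase gene Dusp4 held 28.4, 30.1, 15.1 and 18.98 CPM in WT and 11.1, 8.28, 8.24 and 13.9 CPM in Tg (log2 fold change -1.16, SE 0.26, adjusted p = 0.0259). The ETS factor Etv5 held 43.5, 37.4, 28.8 and 24.8 CPM in WT and 17.8, 17.9, 20.7 and 21.5 CPM in Tg (log2 fold change -0.79, SE 0.17, adjusted p = 0.0253). They were the 2 calls among 35 such genes, and were lost for 4 (0.0776, WT replicate 2) and 4 (0.0842, Tg replicate 1) of the 11 libraries. Of 41 interferon response genes 34 lay below WT (median -0.30; -0.20 against WT replicate 3 alone), and 2 fell, Ifi27 (-0.56, SE 0.15) and Trim25 (-0.37, SE 0.09), with calls lost for 10 (0.127, Tg replicate 1) and 7 (0.122, Tg replicate 1). Nfkbie, an inhibitor of NF-kB, fell (-0.69, SE 0.17; call lost for 6 (0.111, Tg replicate 1)) and was the only call among 24 NF-kB response genes. Immediate early genes, which respond within minutes to stimuli and to cell handling, lay above WT for 21 of 23 members. Their median was 0.66 (1.46 against WT replicate 3 alone), and none was called by edgeR. Unadjusted p-values lay under 0.05 for 12 of them, and 2 were called by DESeq2. Leaving out 1 library, edgeR called 0 without KO replicate 2 to 8 without WT replicate 4. Ier2 held 349.8, 402, 353 and 751 CPM in WT and 897, 1640, 598 and 837 CPM in Tg (log2 fold change 1.098, SE 0.31, adjusted p = 0.0611). Fosl1 held 1.11, 0.846, 1.03 and 1.58 CPM in WT and 4.14, 7.09, 1.32 and 3.06 CPM in Tg (log2 fold change 1.78, SE 0.49, adjusted p = 0.055), with overlap in both. WT replicate 4 and Tg replicate 2 were the highest of their groups for Ier2, Fosl1 and Egr1.

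Genes of mitosis fell together by small amounts. In the G2 and M phase list 15 of 54 fell, none rose and all 54 lay below WT (median -0.25; -0.35 against WT replicate 3 alone). Kif11, the bipolar spindle kinesin, held 303, 304, 304 and 278 CPM in WT and 216, 237, 219 and 233 CPM in Tg. The 4 WT and 4 Tg libraries did not overlap (log2 fold change -0.39, SE 0.06, adjusted p = 0.00887). Dlgap5, a spindle assembly factor, held 60.02, 73.2, 66.5 and 59.3 CPM in WT and 42.4, 44.4, 47.7 and 44.7 CPM in Tg (log2 fold change -0.53, SE 0.08, adjusted p = 0.00712). Ect2, the exchange factor of cytokinesis, held 117, 133, 133 and 114 CPM in WT and 85.4, 94.8, 86.98 and 94.6 CPM in Tg (log2 fold change -0.46, SE 0.07, adjusted p = 0.00789). Nusap1, a spindle-associated protein, held 134, 138, 141 and 120.2 CPM in WT and 93.2, 92.4, 96.8 and 105 CPM in Tg (log2 fold change -0.46, SE 0.07, adjusted p = 0.00887). These 4 were called in each leave-one-out fit, and the number called in the list ran from 6 without Tg replicate 1 to 15 without Tg replicate 4. In the S phase list 28 of 46 genes lay below WT, with a median of -0.09. Against WT replicate 3 alone the median was -0.23, with Tg above it for 0 of 46. In the main fit 3 fell (6.52%, against 2.83% of all members): Clspn, the checkpoint mediator claspin (-0.35, SE 0.06), Slbp, which binds histone messages (-0.35, SE 0.06), and Pcna, the replication clamp (-0.28, SE 0.07; call lost for 7 (0.0855, Tg replicate 2) of the 11 libraries). Cdkn2c, the CDK inhibitor p18, fell (31.7, 42.6, 46.7 and 31.98 CPM in WT and 26.4, 22.4, 26.7 and 26.1 CPM in Tg; log2 fold change -0.59, SE 0.13, adjusted p = 0.0278), with its call lost for 3 of 11 libraries (largest adjusted p 0.0812, with Tg replicate 2 left out).

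Replication-dependent histone genes, which are expressed in S phase, lay below WT for 46 of 57 members (median -0.20; -0.515 against WT replicate 3 alone). Of these 57 genes 4 fell (from 1 without Tg replicate 1 to 5 without WT replicate 1). H1f1, a linker histone gene, held 859, 1079, 918 and 750.4 CPM in WT and 498, 581, 615 and 638 CPM in Tg (log2 fold change -0.63, SE 0.12, adjusted p = 0.015). H2bc3 held 508, 620.4, 687 and 513 CPM in WT and 338, 419, 368 and 418 CPM in Tg (log2 fold change -0.59, SE 0.11, adjusted p = 0.015), its call lost for 1 of 11 libraries (largest adjusted p 0.0511, with Tg replicate 1 left out). H1f5 (-0.49, SE 0.13) and H2bc18 (-0.43, SE 0.10) lost theirs for 8 (0.127, Tg replicate 1) and 7 (0.0979, Tg replicate 1). None of 85 cytoplasmic ribosomal protein genes was called by edgeR (median 0.01). Of these, 7 reached an unadjusted p under 0.05, and 2 were lower by DESeq2.

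Several metabolic genes rose. In the list of glycolysis and lactate transport 3 of 25 rose, none fell and 22 lay above WT (median 0.28). Against WT replicate 3 alone the median was 0.11, with Tg above it for 16 of 25. The number called ran from 1 without Tg replicate 1 to 7 without WT replicate 3. Aldoa, the aldolase, held 225, 231, 285 and 266 CPM in WT and 439, 479.8, 327 and 382 CPM in Tg (log2 fold change 0.69, SE 0.12, adjusted p = 0.0108). Hk3, a hexokinase of myeloid cells, held 66.96, 94.98, 103 and 125 CPM in WT and 271, 288, 131 and 208 CPM in Tg (log2 fold change 1.21, SE 0.23, adjusted p = 0.0158). Slc16a3, a lactate exporter, held 4.87, 5.76, 8.42 and 6.81 CPM in WT and 11.7, 14.2, 8.44 and 11.5 CPM in Tg (log2 fold change 0.82, SE 0.20, adjusted p = 0.0339), with calls lost for 2 (0.0511, Tg replicate 1) and 9 (0.11, Tg replicate 2) of the 11 libraries. Of 37 glutathione and redox genes 4 rose, among them Gsr, the glutathione reductase (110.1, 61.99, 94.6 and 137 CPM in WT and 359.8, 369, 148 and 285 CPM in Tg; log2 fold change 1.53, SE 0.29, adjusted p = 0.0138), Gstm1, a glutathione transferase (77.5, 43.8, 61.2 and 97.99 CPM in WT and 268, 250.4, 114 and 203 CPM in Tg; log2 fold change 1.58, SE 0.28, adjusted p = 0.0108), and Prdx5, a peroxiredoxin (56.5, 51.7, 57.4 and 69.8 CPM in WT and 104, 126, 72.2 and 111 CPM in Tg; log2 fold change 0.81, SE 0.15, adjusted p = 0.0126). Hmox1 was the 1 that fell. In the list of the amino acid response 30 of 31 members lay above WT, but against WT replicate 3 alone 15 did, and 1 rose (Sesn2, a brake on mTORC1; 0.52, SE 0.11; call lost for 4 (0.0676, Tg replicate 2) of the 11 libraries). Of 39 cholesterol and fatty acid genes 1 rose and 1, the acetyl-CoA synthetase gene Acss2, fell (-0.42, SE 0.09; call lost for 3 (0.0676, Tg replicate 1)). These shares, 2.56% in each direction, lay near those over all members.

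Among chromatin genes the calls were few in number, and most were falls. The shares called lower were 6.67% of Polycomb genes and 9.09% of NuRD subunits and reported PHF6 partners, against 2.83% of all members. They were 5.71% for histone acetylation and 7.14% for histone methyltransferases and demethylases. In these 4 lists 21 of 30, 15 of 22, 25 of 35 and 33 of 42 genes lay below WT. No SWI/SNF or DNA methylation gene was called, as given below. Of 30 Polycomb genes Ezh2, the H3K27 methyltransferase, held 199, 239.8, 194 and 185 CPM in WT and 129, 132, 161 and 143 CPM in Tg (log2 fold change -0.53, SE 0.09, adjusted p = 0.0112). Cbx2, a reader of that mark, fell (-0.63, SE 0.15) and Pcgf2 rose (0.64, SE 0.16), with calls lost for 4 (0.103, Tg replicate 1) and 8 (0.101, Tg replicate 2) of the 11 libraries. Of 22 NuRD subunits and reported PHF6 partners, Mta3 held 95.1, 84.5, 78.3 and 79.4 CPM in WT and 54.6, 62.99, 65.3 and 60.6 CPM in Tg (log2 fold change -0.47, SE 0.09, adjusted p = 0.0143) and Gatad2b fell by 0.22 on the log2 scale (SE 0.06; call lost for 10 (0.149, Tg replicate 1)). No other member of that list was called. Of 35 genes of histone acetylation 2 fell and none rose (the falls from 0 without Tg replicate 1 to 3 without WT replicate 3). Hdac9, a class II histone deacetylase, held 16.5, 27.2, 12.7 and 20.3 CPM in WT and 6.76, 9.21, 6.75 and 13.2 CPM in Tg (log2 fold change -1.096, SE 0.25, adjusted p = 0.0305), its call lost for 6 of 11 libraries (largest adjusted p 0.0978, with Tg replicate 1 left out). Of 42 histone methyltransferases and demethylases 3 fell and none rose (the falls from 1 without Tg replicate 1 to 4 without WT replicate 3). Kdm6a, the H3K27 demethylase UTX, held 133, 128, 124 and 152 CPM in WT and 105, 104, 85.8 and 91.3 CPM in Tg (log2 fold change -0.48, SE 0.09, adjusted p = 0.0156). Kdm6a lies on the X chromosome and is known to escape X inactivation. The Xist state differed with the groups as given above, and its part in this fall was not tested. The X-linked genes Kdm5c, Ddx3x and Eif2s3x, which also escape, lay at 188 to 256, 566 to 770.3 and 79.98 to 128 CPM in WT and at 161 to 195, 473 to 747 and 70.6 to 111 CPM in Tg, and were not called.

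Of 19 other genes with a Phf symbol, 2 fell (10.5%, against 2.83% of all members) and none rose. Phf11d, of a family of similar genes on chromosome 14 that could share reads, held 5.18, 7.77, 9.36 and 5.75 CPM in WT and 1.61, 2.14, 1.99 and 2.68 CPM in Tg (log2 fold change -1.74, SE 0.25, adjusted p = 0.00581). Phf11b held 8.02, 8.11, 7.83 and 9.49 CPM in WT and 3.71, 3.55, 2.85 and 4.99 CPM in Tg (log2 fold change -1.15, SE 0.18, adjusted p = 0.00837). Each was called in every leave-one-out fit. None of 23 SWI/SNF subunits was called by edgeR. Among them 6 reached an unadjusted p under 0.05, and 2 were lower by DESeq2. None of 17 DNA methylation genes was called by edgeR either. Among these 7 reached an unadjusted p under 0.05, and 1 was higher and 1 lower by DESeq2. Of 46 genes mutated in human leukaemias 4 fell (8.7%) and none rose: Notch1, Ezh2, Il7r and Ctcf, the insulator factor (-0.25, SE 0.06; call lost for 6 (0.1, Tg replicate 1) of the 11 libraries).

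**Figure D4:**
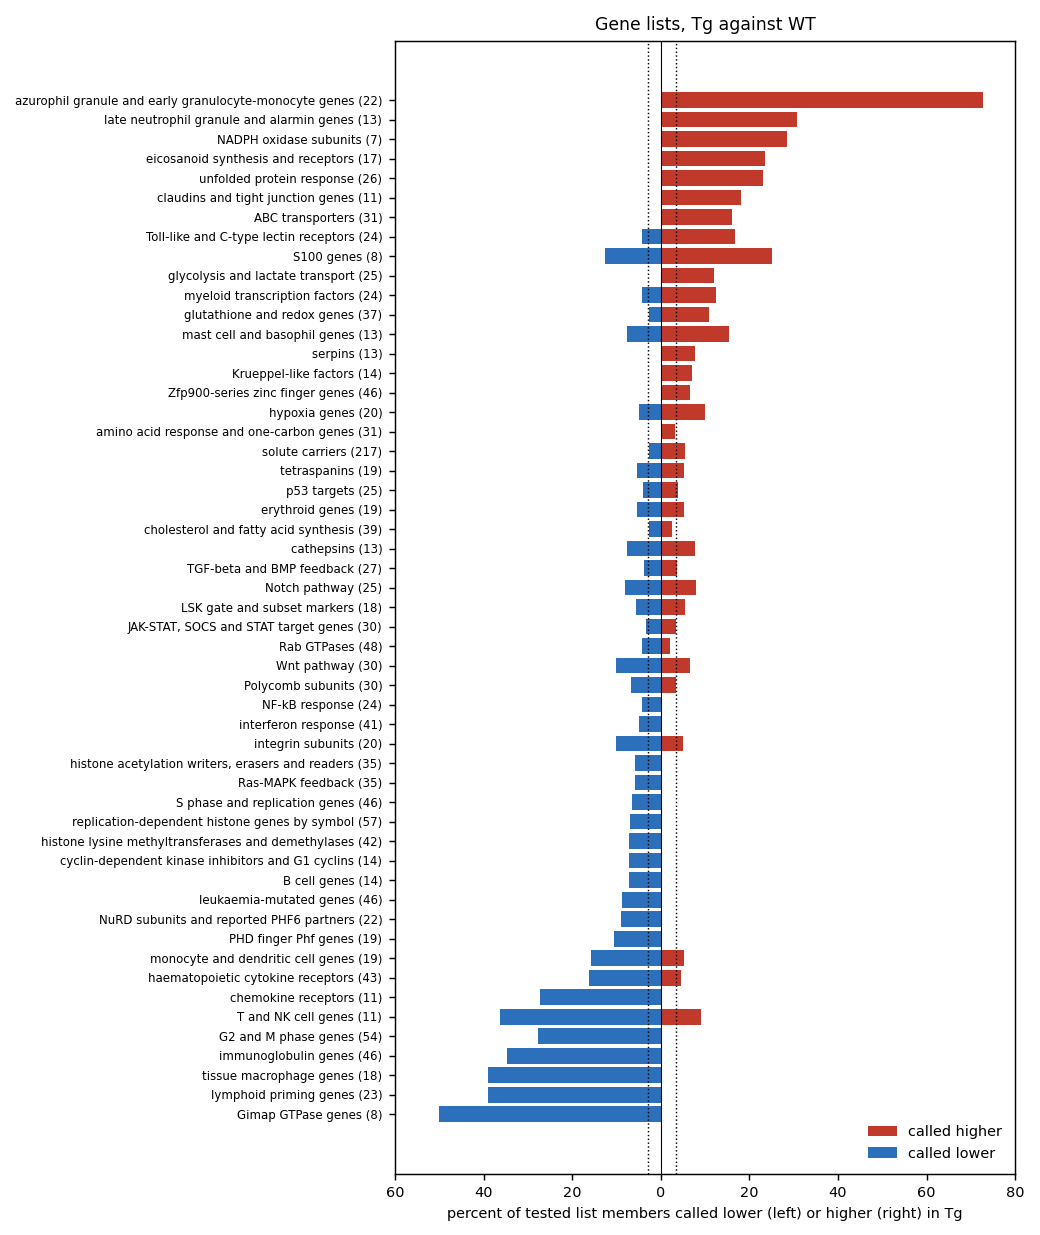
Percent of the tested members of each gene list called higher (red, right) or lower (blue, left) in Tg, for lists with at least 7 tested members and at least 1 call, 1 list left out, with the number tested in brackets and dotted lines at the shares over all members (3.36% and 2.83%). Azurophil granule genes stand at 72.7% called higher, and 4 of 8 Gimap genes are called lower (1 without Tg replicate 1).

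By lowest p, among protein-coding genes at a mean of at least 5 CPM with predicted models left out, several genes outside the programmes above had the lowest p. Eno1b, a retrogene copy of the enolase gene Eno1 on chromosome 18, was at 0.191, 0.313, 0.282 and 0.384 CPM in WT and 16.8, 18.8, 14.6 and 19.2 CPM in Tg (log2 fold change 5.900, SE 0.24, adjusted p = 2.79e-07). It was close to absent in WT and at a near-constant level in the 4 Tg mice, and its reads could be shared with Eno1 by the counting. Zfp990, of a family of similar zinc finger genes on chromosome 4 whose reads could be split between copies, held 0.986, 0.345, 0.313 and 0.671 CPM in WT and 17.2, 19.4, 13.04 and 31.6 CPM in Tg (log2 fold change 5.14, SE 0.40, adjusted p = 7.5e-05). Its relative Zfp985 on the same chromosome held 1.69, 0.877, 1.002 and 1.25 CPM in WT and 5.201, 3.44, 3.805 and 9.05 CPM in Tg (log2 fold change 2.16, SE 0.35, adjusted p = 0.00975). Ide, the insulin-degrading enzyme (chromosome 19, 37268743 to 37337852), held 224, 171, 241 and 193 CPM in WT and 433, 442, 391.8 and 398 CPM in Tg, with the 4 Tg mice within a narrow range near 2-fold over WT (log2 fold change 1.004, SE 0.11, adjusted p = 0.000695). Pls3, the X-linked actin bundler plastin 3, held 3.72, 2.13, 2.35 and 2.83 CPM in WT and 12.9, 12.1, 11.7 and 15.4 CPM in Tg (log2 fold change 2.24, SE 0.25, adjusted p = 0.00123). Arhgef28, a guanine nucleotide exchange factor, held 11.1, 13.1, 14.3 and 16.5 CPM in WT and 55.8, 50.2, 35.3 and 34.4 CPM in Tg (log2 fold change 1.68, SE 0.19, adjusted p = 0.00149). Celsr1, a planar cell polarity cadherin, held 57.4, 55.9, 61.5 and 69.6 CPM in WT and 101, 96.9, 87.6 and 95.4 CPM in Tg (log2 fold change 0.64, SE 0.08, adjusted p = 0.00245). Lbp, the lipopolysaccharide-binding protein, held 41.8, 36.4, 59.6 and 56.4 CPM in WT and 169.9, 152, 97.4 and 128 CPM in Tg (log2 fold change 1.496, SE 0.19, adjusted p = 0.00245). For each of these 8 genes the call held in all 11 leave-one-out fits, at an adjusted p of at most 0.034.

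The falls of lowest p under the same rule were also seen in all 4 Tg mice. Rab6b, a Golgi GTPase of neurons (chromosome 9, 103111787 to 103185276), held 20.2, 17.4, 13.3 and 18.3 CPM in WT and 0.718, 0.423, 1.26 and 1.15 CPM in Tg (log2 fold change -4.29, SE 0.29, adjusted p = 1.67e-05). Pink1, the kinase that marks damaged mitochondria (chromosome 4, 138313409 to 138326307), held 113, 91.4, 88.5 and 115 CPM in WT and 49.8, 52.8, 50.2 and 52.4 CPM in Tg (log2 fold change -0.99, SE 0.09, adjusted p = 0.000242). Akr1e1, an aldo-keto reductase, held 28.6, 26.3, 31.1 and 26.1 CPM in WT and 5.75, 9.58, 6.42 and 6.61 CPM in Tg (log2 fold change -1.98, SE 0.19, adjusted p = 0.000294). Wdfy1, an endosomal adaptor of Toll-like receptors, held 55.5, 56.4, 69.8 and 47.7 CPM in WT and 24.6, 26.9, 21.6 and 19.1 CPM in Tg (log2 fold change -1.32, SE 0.14, adjusted p = 0.000695). Cmah, which makes the sialic acid Neu5Gc, held 57.8, 45.3, 28.3 and 45.6 CPM in WT and 12.5, 8.999, 13.3 and 13.1 CPM in Tg (log2 fold change -1.88, SE 0.20, adjusted p = 0.000865). P2ry14, a receptor for UDP-glucose on stem and progenitor cells, held 45.5, 37.4, 44.1 and 40.3 CPM in WT and 24.2, 23.6, 22.04 and 27.2 CPM in Tg (log2 fold change -0.79, SE 0.10, adjusted p = 0.00245). Ephb2, an ephrin receptor, fell (log2 fold change -1.28, SE 0.17, adjusted p = 0.00389), and so did Lgmn, the lysosomal protease legumain (log2 fold change -2.03, SE 0.29, adjusted p = 0.0053). These 8 genes kept their call in the 11 leave-one-out fits.

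A few genes were present in 1 group and close to absent in the other, at 3 counts or fewer in every library. The predicted gene 5830444B04Rik on chromosome 4 held 10.3, 15.1, 7.297 and 11.1 CPM in WT and 0, 0, 0 and 0 CPM in Tg, and none of the Tg libraries had a count of it. The Tg level was at least 532-fold lower, taking 3 counts over the Tg group as its floor. Fabp4, a fatty acid binding protein of macrophages and fat cells, held 2.32, 1.22, 1.002 and 1.44 CPM in WT and 0.0248, 0.0794, 0 and 0 CPM in Tg (adjusted p = 0.00389), from 30 to 73 counts in each WT library to 1, 3, 0 and 0 counts in Tg. The immunoglobulin segments Igkv12-44, Igkv4-72 and Ighv1-67 also had 0 counts in all 4 Tg libraries. In the other direction, the pseudogene Tgif2-ps2 held 0, 0, 0.09396 and 0.0959 CPM in WT and 1.63, 1.99, 1.42 and 1.37 CPM in Tg (log2 fold change 5.09, SE 0.64, adjusted p = 0.00249; 5.84 without WT replicate 3). It was the only member to rise of those with at most 3 counts in every library of 1 group and a mean of at least 1 CPM in the other, against 5 that fell.

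Called genes were spread over the chromosomes. Their share ran from 3.52% of tested genes on chromosome 17 and 3.98% on chromosome 13 to 8.05% on chromosome 2, 8.64% on 19, 8.68% on 6 and 8.81% on 4, against 6.19% over all members. Without WT replicate 2 the share on chromosome 4 was 4.21%, but calls over all members were also fewer, at 165 higher and 119 lower. On the X chromosome the share in the main fit was 5.92%, with 15 genes higher and 10 lower of 422 tested. Runs of at least 3 called genes in a row, in the order of the annotation, were found 8 times. The imprinted Dlk1 to Meg3 region of chromosome 12 held 1 of the longest, with Dlk1, Meg3, Rian and Ppp2r5c between 109452823 and 110583062. Rian, a maternally expressed RNA, held 0.382, 0.219, 0.595 and 0.575 CPM in WT and 9.54, 7.68, 7.68 and 6.68 CPM in Tg (log2 fold change 4.16, SE 0.35, adjusted p = 0.000134). Meg3, another, held 0.318, 0.188, 0.157 and 0.671 CPM in WT and 2.402, 5.16, 4.4996 and 3.62 CPM in Tg (log2 fold change 3.61, SE 0.43, adjusted p = 0.002). Dlk1, the paternally expressed gene of the region, held 0.891, 0.533, 0.689 and 0.479 CPM in WT and 4.33, 3.26, 7.68 and 5.55 CPM in Tg (log2 fold change 2.99, SE 0.46, adjusted p = 0.00841), while Ppp2r5c at its edge fell by 0.24 on the log2 scale (SE 0.06; call lost for 8 (0.0994, Tg replicate 1) of the 11 libraries). The 3 imprinted genes rose from under 1 CPM in every WT library. Plppr3, Prtn3 and Elane made a run on chromosome 10 (79860475 to 79888215), where Plppr3 had a log2 fold change of 0.76 (call lost for 8 (0.105, Tg replicate 2)). On chromosome 5 Cldn15, a claudin, held 0.445, 2.07, 1.47 and 5.08 CPM in WT and 54.6, 84.2, 11.8 and 30.3 CPM in Tg (log2 fold change 4.37, SE 0.70, adjusted p = 0.00889; 5.08 without WT replicate 4), next to Znhit1 (0.58, SE 0.15; call lost for 8 (0.139, Tg replicate 2)) and Plod3 (1.08, SE 0.27; call lost for 7 (0.12, Tg replicate 2)). Tcn2, the vitamin B12 carrier transcobalamin (log2 fold change 0.73, SE 0.13, adjusted p = 0.012), lay on chromosome 11 beside Slc35e4 (0.71, SE 0.17; call lost for 6 (0.116, Tg replicate 1)) and Dusp18 (0.58, SE 0.15; call lost for 8 (0.122, Tg replicate 1)). The immunoglobulin kappa and heavy chain loci, the Gimap cluster and a region with Kif23, Paqr5 and Glce on chromosome 9 held the other runs.

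**Figure D5:**
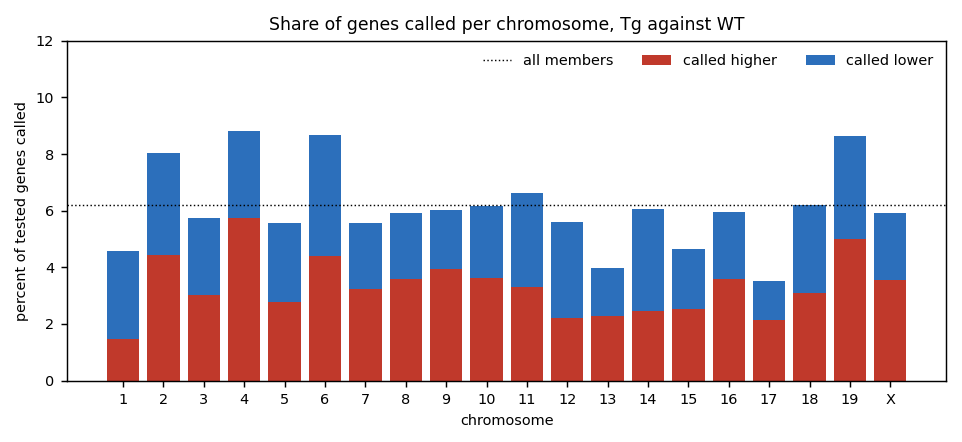
Percent of the tested genes on each chromosome called higher (red) or lower (blue) in Tg, stacked, with a dotted line at 6.19%, the share over all members. Chromosome 4 has the highest total, 8.81%, and chromosome 17 the lowest, 3.52%.

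The 4 Tg mice were not alike, and neither were the 4 WT mice. The median standard deviation of log2 CPM over the members was 0.183 in Tg and 0.193 in WT, so that the spread was of the same size in both groups. Tg replicates 1 and 2 lay at 45.6 and 44.9 on the first component, and Tg replicates 3 and 4 at 21.5 and 21.7. The WT libraries ran from -52.6 to -21.1. The summed Y-linked level also split the Tg mice in this way, at 192 and 49.9 CPM against 333 and 367 CPM. Its part in the split was not tested. The processed pseudogene Gm15772 on chromosome 5 was split in the same way, with 1.05, 0.971, 2.82 and 2.21 CPM in WT and 142, 136, 10.9 and 11.4 CPM in Tg (log2 fold change 5.43, SE 0.97, adjusted p = 0.0114). The reads counted for it could be shared with similar genes. The histone gene Hist1h4m varied by mouse in both groups (59.01, 50.97, 67.99 and 0.623 CPM in WT and 0.0495, 30.1, 40.03 and 64.2 CPM in Tg), with values near 0 in 1 library of each. The mean of the azurophil granule list was highest in Tg replicates 1 and 2 and lowest in replicate 3, whereas Phf6 itself was lowest in replicates 1 and 2.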

How the data were processed

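RNA-seq was done on sorted LSK cells of 4 WT, 3 Phf6 KO and 4 Tg mice, with paired reads, per the labels' protocols. Per the submitters' processing notes, FastQC, Trimmomatic, STAR and HTSeq were used with mm10; no version, annotation or strand setting is named. The deposited table holds raw counts per gene and library, not normalized by the authors. Positions were taken from the GENCODE M21 annotation of GRCm38, in which 13513 members matched by symbol, and promoter sequences from RefSeq (GRCm38.p6).

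From the counts, edgeR 4.0.16 (R 4.3.3) gave TMM-scaled CPM and quasi-likelihood tests of Tg against WT in 1 fit of all 11 libraries, with p-values adjusted by Benjamini-Hochberg over the 13779 members. SE is the log2 fold change divided by the square root of F. Values are means or single libraries, n = 4 mice per group. Mice are separate animals per the labels. limma 3.58.1 and DESeq2 1.42.0 served as alternatives. On simulated data with 200 changed genes of 13779, 50.7% of 1.5-fold, 89.6% of 2-fold and 95.5% of 4-fold changes were recovered, and 5 of 162 calls were false. The simulation drew each gene independently and changed no gene of low level. It held no shared differences between libraries, such as those in Xist and Y-linked reads, so these rates need not hold for the data.

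Named genes were Phf6, the 12 called protein-coding genes of lowest p in each direction (mean of at least 5 CPM), the 8 of largest fold at 100 CPM or more, up to 4 called members of lowest p per list (2 where none was called), members of the longest runs of called neighbours, genes with at most 3 counts in every library of 1 group, and the 6 genes of largest spread within Tg. Mpo and the marker genes were added outside this rule. The members and lists were chosen with earlier results of these data known. Of the libraries, none was left out of the main fit. A few genes are not reported here.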

Additional observations from a re-analysis of the deposited data

Results flagged for a closer look

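Libraries that stood apart from the other 3 of their group, by Dixon's test on CPM, were found in 10 of 306 pairs of a named gene and a group. Chance gives about 1 in 20 for unselected and independent pairs. These pairs share libraries, and 148 of the 156 named genes were chosen among called genes, so that rate decides nothing here. WT replicate 4 was highest for Ier2 (751 CPM), Tcn2 (46.9 CPM), Phf11b (9.49 CPM) and Wfdc21 (1.25 CPM), and lowest for Kif11 (278 CPM). WT replicate 2 was highest for Tgfbr2 (142 CPM), and WT replicate 1 for Clec2i (10.8 CPM). Among the Tg mice, replicate 2 was lowest for Cdkn2c (22.4 CPM) and highest for H2bc18 (120.2 CPM), and replicate 3 was highest for Igha (72.5 CPM).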

How the results depend on the processing

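Of the 463 genes higher, 390 lower and 335 changed over 2-fold, DESeq2 gave 860 higher and 810 lower, a Y-linked covariate 840 and 674, a test against a 1.2-fold change 177, 74 and 208, the 8 Tg and WT libraries alone 209, 173 and 222, and the fit without libraries holding both Xist and Y-linked reads 9, 10 and 19. The share called on chromosome 4 (8.81%) became 15.3%, 13.8%, 3.45%, 5.11% and 0.255% under these in turn. In the last fit 6399 genes did not overlap (1437 in the main fit) and 0 of the genes called higher held TTGCNNAA (9.91%). That fit has fewer samples. Leaving out 1 library gave 165 to 659 genes higher, 107 to 511 lower, 158 to 388 over 2-fold, 4.21% to 11.2% on chromosome 4, 1437 to 2534 without overlap and 8.73% to 10.9% with TTGCNNAA. RLE size factors, library totals, limma-voom, robust moderation and 4 other choices of genes kept both counts within 1.5 times. Hspa1a and Hspa1b turned negative under limma-voom (-0.61 and -0.81) and without Tg replicate 4 (-0.023 and -0.23), and without 1 library they ranged up to 0.944 and 0.848 (Tg replicate 1). The causes were not tested.

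With the replicate block, 71 genes were higher, 48 lower and 104 over 2-fold, and 108 of the 853 calls were kept. On chromosome 4, 1.79% was called. TTGCNNAA was held by 16.7% of the 48 genes called higher with a promoter window (9.91% of 323 in the main fit). Hspa1a and Hspa1b were at -0.56 and -0.70. Whether the replicate numbers of Tg and WT pair the mice is not stated in the labels. Deviations of same-numbered libraries from their group means correlated at -0.101, -0.268, 0.02 and 0.02. Those of differently numbered libraries correlated at -0.445 to 0.384. The deviations within a group sum to 0, so these values depend on each other and cannot decide whether mice were paired. Depth limits values under about 0.143 CPM.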

Other observations

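Transporters and cell surface genes were not described above. Of 217 solute carrier genes 12 rose (5.53%, against 3.36% of all members) and 6 fell (2.76%, against 2.83%). The rises ran from 1 without Tg replicate 1 to 17 without Tg replicate 3, and the falls from 3 without Tg replicate 1 to 9 without WT replicate 3. Slc48a1, a heme transporter, held 87.5, 87.9, 104 and 94.97 CPM in WT and 138, 137, 113 and 132 CPM in Tg (log2 fold change 0.48, SE 0.08, adjusted p = 0.0104; edgeR). Slc37a2, a phosphate-linked sugar transporter of myeloid cells, held 3.53, 8.21, 2.16 and 5.23 CPM in WT and 0.421, 0.556, 0.596 and 1.15 CPM in Tg (log2 fold change -2.81, SE 0.45, adjusted p = 0.00887). Slc16a11, of the monocarboxylate transporter family, held 5.28, 6.95, 5.01 and 3.88 CPM in WT and 1.34, 1.83, 1.72 and 1.81 CPM in Tg (log2 fold change -1.66, SE 0.23, adjusted p = 0.00432). Of 31 ABC transporter genes 5 rose and none fell, from 0 without Tg replicate 2 to 6 without WT replicate 3.

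Dock9, an exchange factor for Cdc42, held 62.1, 68.8, 83.1 and 71.05 CPM in WT and 111, 101, 94.95 and 109 CPM in Tg (log2 fold change 0.55, SE 0.10, adjusted p = 0.0108). Arhgef16 held 0.286, 0.501, 0.157 and 0.336 CPM in WT and 2.18, 1.35, 1.95 and 2.96 CPM in Tg (log2 fold change 2.71, SE 0.37, adjusted p = 0.00432). Klf9, the 1 call among 14 Krueppel-like factors, held 37.4, 43.95, 37.8 and 45.9 CPM in WT and 111, 78.8, 60.05 and 102 CPM in Tg (log2 fold change 1.096, SE 0.18, adjusted p = 0.00889). Each of these single genes was called in all 11 leave-one-out fits.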
